A study of Mus musculus with 4 samples.

Results

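Whole retinas of mice that lacked Ndp, which encodes the secreted protein Norrin, were compared with retinas that kept it, in a setting where beta-catenin was stabilized in endothelial cells of both. The comparison uses 2 of the 4 RNA sequencing libraries of the study. The stabilized Ndp knockout library had the genotype NdpKO;Ctnnb1flex3/+;Pdgfb-CreER, and the stabilized library had Ctnnb1flex3/+;Pdgfb-CreER. Ctnnb1flex3 is an allele of the beta-catenin gene that turns into a stabilized form after recombination, and Pdgfb-CreER is a recombinase expressed in endothelial cells that is active only with a tamoxifen compound. The other 2 libraries, WT and NdpKO (called the Ndp knockout below), carried neither of these alleles and give the same loss of Ndp without stabilization. Every mouse, WT included, was given 20 μg of 4HT, a tamoxifen metabolite, intraperitoneally on postnatal day 3, and retinas were taken on postnatal day 10. The strain was mixed and held at least C57BL6 and 129. Each library was 1 pool of RNA from 3 batches, each batch from 4 to 8 retinas of 2 to 4 mice, so the spread between mice was not measured and no difference could be tested. How many endothelial cells recombined was not analysed here.

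Genes were included where the authors' status was OK in all 4 libraries and the mean was at least 1 FPKM (fragments scaled to transcript length and to the size of the library), without short RNA symbols and without genes on the X or Y chromosome. Of 23278 genes in the table, 12470 met this rule. Log2 ratios were taken after adding 0.5 to each FPKM, which understates changes of weakly expressed genes. A gene is called higher or lower at a ratio of at least 1.5-fold, and it is said separately whether the deposited intervals of the compared libraries overlap. Those intervals describe the estimate within a library, not the variation between animals, and the sources used here do not give their level. In whole-tissue RNA, fewer cells of a type and less RNA per cell cannot be told apart.

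Norrin is made by Müller glia and binds the receptor Frizzled-4 on endothelial cells, together with the co-receptor Lrp5 and the tetraspanin Tspan12. Receptor activation keeps beta-catenin from being degraded, and beta-catenin then enters the nucleus and works with TCF/LEF transcription factors. In the retina this pathway is known for driving growth of the deeper capillary layers and for keeping the blood-retina barrier, whose endothelial cells have tight junctions and selective transporters and lack fenestrae. Stabilized beta-catenin acts below the receptor, so the comparison addresses what loss of the ligand still alters when that step is held active.

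Summed FPKM lay between 405525 and 427109 in the 4 libraries, and between 13079 and 13203 genes were at 1 FPKM or more. The stabilized library had the lowest sum and the stabilized Ndp knockout the highest. Small ratios and list medians between these libraries therefore depend in part on scaling. The sources used here give no read totals, and upper bounds lay a median of 17.3% to 17.5% above their FPKM. The tissue label was checked on the 21 listed rod genes, all of which met the rule above. Sex followed the Ndp genotype. Xist, which coats the inactive X chromosome, was at 130 in the stabilized library and 1.28 FPKM in the stabilized Ndp knockout, and Y-linked Ddx3y was at 0.173 and 20.1 FPKM. WT (135 FPKM Xist) and the Ndp knockout (1.25 FPKM Xist) differed in the same way, so loss of Ndp and sex cannot be told apart in either comparison.

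Ndp itself (X chromosome, 16885522 to 16911764, mm10) was at 2.35 in the stabilized library (1.68 to 3.02 as the deposited interval) and 0.869 FPKM in the stabilized Ndp knockout (0.557 to 1.18). WT had 2.98 (2.17 to 3.80) and the Ndp knockout 0.873 FPKM (0.561 to 1.19). Both knockout libraries lay below both libraries with an intact gene, and no interval of one kind met one of the other. Which exons gave the fragments left in the knockouts cannot be read from gene-level values. Genes of the receptor complex were not called. Fzd4, the gene of Frizzled-4, was at 1.89 in the stabilized library (1.40 to 2.38) and 2.09 FPKM in the stabilized Ndp knockout (1.56 to 2.62), a log2 ratio of 0.12. Lrp5 had a log2 ratio of 0.06, Tspan12 of 0.31 and Ctnnb1, the beta-catenin gene, of 0.05, all with overlapping intervals.

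Across all genes, loss of Ndp under stabilized beta-catenin went with few differences of size. The median log2 ratio was 0.04 with an SD over genes of 0.21, and 99.3% of genes lay within 1.5-fold. In the stabilized Ndp knockout, 61 genes were higher (0.489% of those tested) and 31 were lower (0.249%). Deposited intervals were apart for 22 of the higher genes (0.176%) and 13 of the lower ones (0.104%). The excess of higher over lower calls depended on scaling: the split was 52 against 40 after re-centring on the median and 47 against 44 after scaling the libraries to the same total. Without stabilization, 48 genes were higher in the Ndp knockout than in WT (0.385%), 30 of them with intervals apart (0.241%), and 58 were lower (0.465%), 26 of them with intervals apart (0.209%). Of the 92 genes called under stabilization, 34 share their deposited locus with another gene, which leaves their separate values uncertain. Among all 12470 tested genes 2410 do so, a smaller share.

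**Figure D1:**
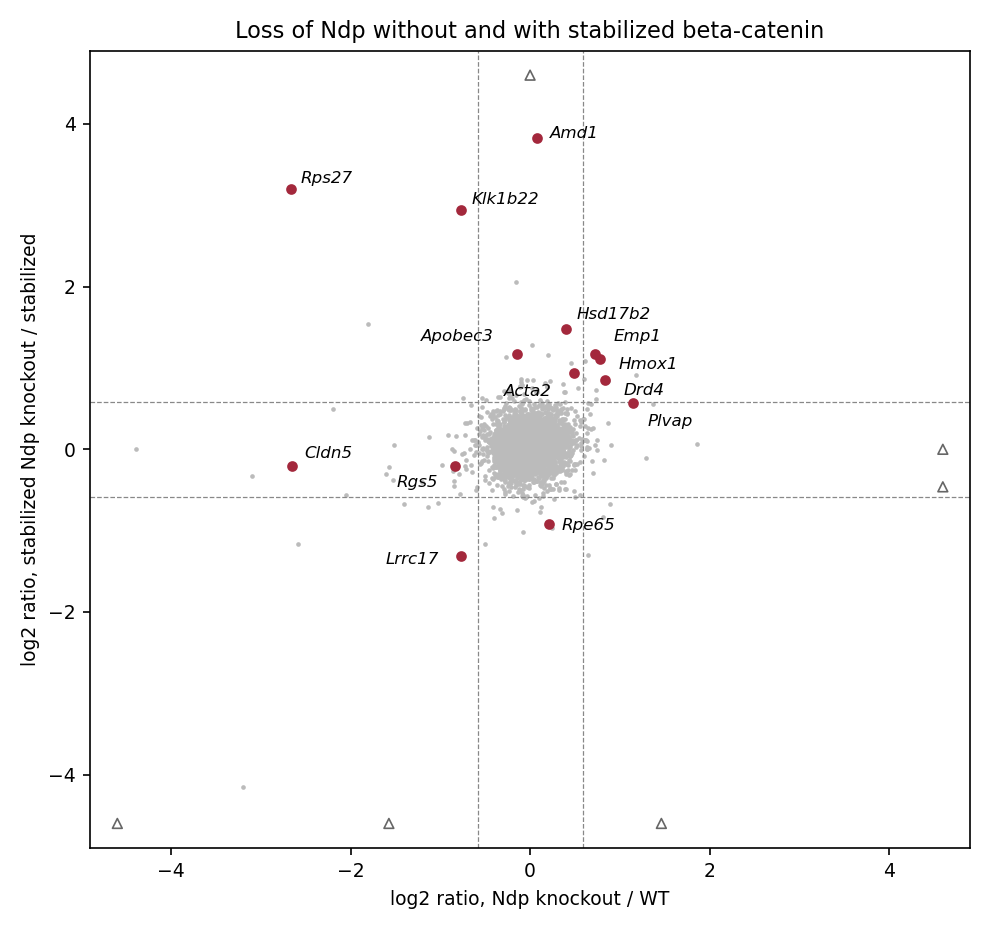
Each point is 1 of 12470 genes: the x axis gives the log2 ratio of the Ndp knockout to WT and the y axis that of the stabilized Ndp knockout to the stabilized library, on FPKM plus 0.5. Dashed lines mark 1.5-fold, open triangles at the edge are genes beyond the axes, and named genes are red. Cldn5 lies far to the left near 0 on the y axis, and Emp1 and Hmox1 are high on both.

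The 3 barrier genes called lower in the Ndp knockout than in WT, Cldn5, Mfsd2a and Slco1c1, were not called between the stabilized libraries. Mfsd2a and Slco1c1 met the minimum mean only through their levels in the stabilized libraries, as did Pglyrp1 below. The set of tested barrier genes therefore depends in part on the libraries where they were high. Of 26 listed barrier genes 17 were tested, and 1 was higher, none was lower and 16 lay between. Of all tested genes 0.489% were higher and 0.249% lower, so no lower call among 17 genes is near the background. The median log2 ratio was -0.01 beside 0.04 for all genes. No member had intervals apart. In the comparison without stabilization 3 of the same 17 were lower and none was higher, beside 0.465% and 0.385% of all tested genes. The median there was -0.06 beside -0.02 for all genes.

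Cldn5, the claudin-5 gene of endothelial tight junctions (chromosome 16, 18776847 to 18778262), was at 6.91 in WT (5.18 to 8.63), 0.675 in the Ndp knockout (0.378 to 0.971), 19.4 in the stabilized library (15.8 to 23.1) and 16.7 FPKM in the stabilized Ndp knockout (13.5 to 20.0). The Ndp knockout was lowest by far, and the intervals of the stabilized libraries overlapped each other and lay above that of WT. The log2 ratio for loss of Ndp was -0.21 under stabilization and -2.66 without it, a difference of 2.45. Mfsd2a (chromosome 4, 122946851 to 122961188), a lysophospholipid transporter that also holds down transcytosis, was at 1.20 in WT, 0.545 in the Ndp knockout, 3.80 in the stabilized library (2.83 to 4.77) and 4.86 FPKM in the stabilized Ndp knockout (3.72 to 6.01). The stabilized Ndp knockout was here the highest library, with an interval that overlapped that of the stabilized library. Its log2 ratio was 0.32 under stabilization and -0.70 without it.

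The upstream sequences of both genes are shown as examples of genes that were lower in the Ndp knockout than in WT and not called in the stabilized pair. They are the 250 bases before the RefSeq start (GRCm38.p6), read 5′ to 3′ on the strand of the gene, Cldn5 from chr16:18776597-18776846 (plus strand) and Mfsd2a from chr4:122961189-122961438 (minus strand). Capitals mark the TCF/LEF core CTTTGA, searched on both strands.
Cldn5: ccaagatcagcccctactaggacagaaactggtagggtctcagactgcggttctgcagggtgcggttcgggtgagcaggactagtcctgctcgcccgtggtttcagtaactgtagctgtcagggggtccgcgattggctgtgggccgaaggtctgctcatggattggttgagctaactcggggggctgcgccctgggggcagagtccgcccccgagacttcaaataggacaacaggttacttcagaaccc
Mfsd2a: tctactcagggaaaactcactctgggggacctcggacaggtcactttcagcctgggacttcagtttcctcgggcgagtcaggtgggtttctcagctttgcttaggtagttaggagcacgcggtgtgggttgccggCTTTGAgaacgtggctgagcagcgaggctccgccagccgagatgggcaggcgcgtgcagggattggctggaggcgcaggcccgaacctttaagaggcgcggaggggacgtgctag
Mfsd2a had 1 match, beginning 115 bases before the start, and Cldn5 had none in this window. Slco1c1, the other such barrier gene, also had none in its window and is not shown. Of 32851 RefSeq promoters, 13.8% held the core within the same length, so a match is a common feature and is given as a description.

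Among transport genes of the barrier, Slco1c1, a thyroid hormone transporter, was at 0.396 in WT, 0.0206 in the Ndp knockout, 3.63 in the stabilized library (2.83 to 4.42) and 2.32 FPKM in the stabilized Ndp knockout (1.72 to 2.91). Both stabilized libraries were above the other 2, and the stabilized Ndp knockout was the lower of them, with intervals that just overlapped and a log2 ratio of -0.55. That ratio passed 1.5-fold with a pseudocount of 0.1 (-0.62), after re-centring (-0.59) and after scaling to the same total (-0.61). Slc38a5, an amino acid transporter on the X chromosome and so outside the tested genes, was at 0.611 in WT, 0.172 in the Ndp knockout, 2.60 in the stabilized library (1.86 to 3.35) and 1.33 FPKM in the stabilized Ndp knockout (0.894 to 1.77). Its intervals were apart in both comparisons, with log2 ratios of -0.76 under stabilization and -0.73 without, and both stabilized libraries were above WT. Pglyrp1, a peptidoglycan recognition protein enriched in brain and retinal endothelium, was at 0.426 in WT, 0.234 in the Ndp knockout, 1.72 in the stabilized library (1.01 to 2.42) and 2.96 FPKM in the stabilized Ndp knockout (1.91 to 4.01). This was the 1 called barrier gene, at 0.64, its intervals overlapped, and it fell short with a pseudocount of 1 (0.54) or scaling to the same total (0.58). Abcb1a, the P-glycoprotein gene, fell short of the minimum mean and was at 0.893 and 1.02 in the stabilized pair against 0.287 in WT and 0.0665 FPKM in the Ndp knockout.

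Plvap, the diaphragm protein of fenestrated endothelium (chromosome 8, 71497753 to 71511769), was above its partner library in both knockouts. It was at 1.72 in WT (1.20 to 2.24), 4.40 in the Ndp knockout (3.30 to 5.50), 1.33 in the stabilized library (0.894 to 1.77) and 2.22 FPKM in the stabilized Ndp knockout (1.58 to 2.87). The Ndp knockout stood above all other libraries, and the intervals of the stabilized pair overlapped. The log2 ratio was 0.57 under stabilization, just short of the call, and 1.14 without it. With a pseudocount of 0.1 the first was 0.70. The other 6 tested genes for fenestration and transcytosis lay between -0.07 and 0.31.

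**Figure D2:**
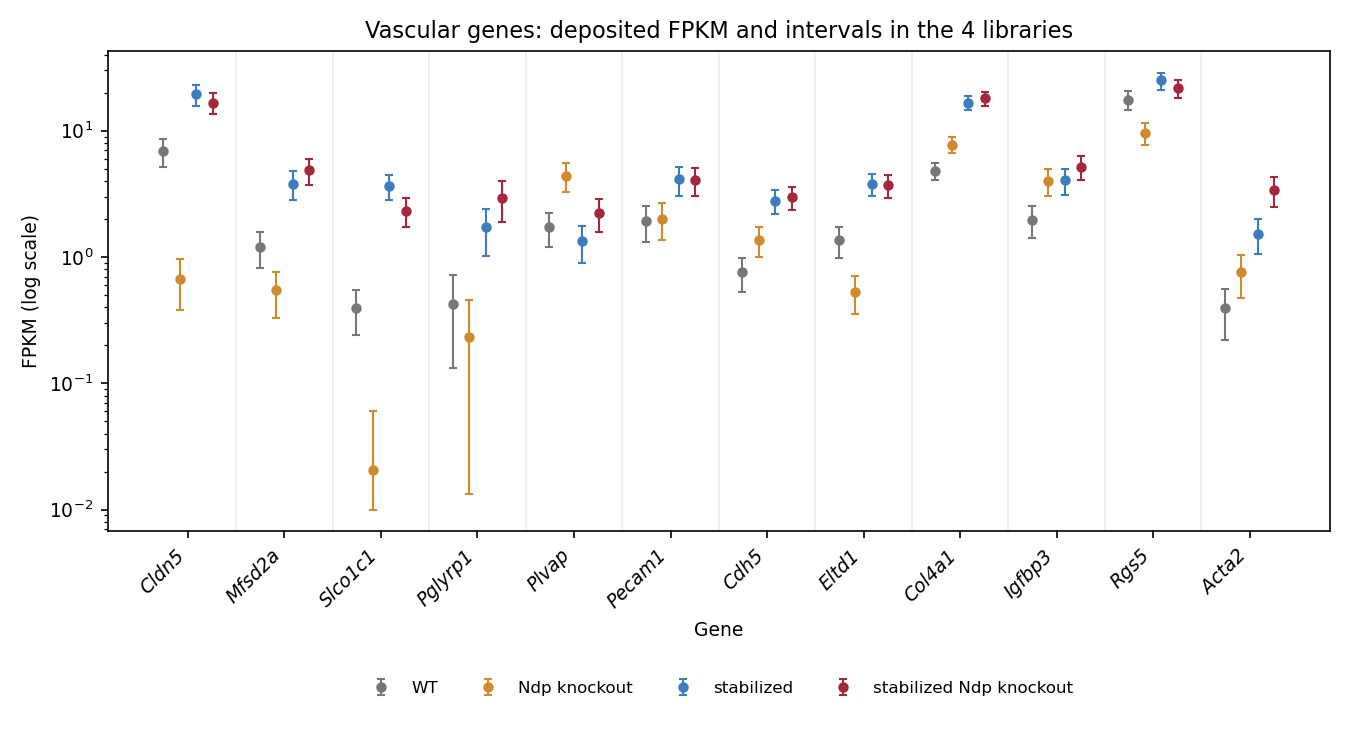
Points are the deposited FPKM (log axis) of 12 vascular genes in the 4 libraries, and bars are the deposited intervals, cut at 0.01 FPKM. For Cldn5, Eltd1, Col4a1 and Rgs5 the stabilized pair overlaps while WT and the Ndp knockout are apart, and Acta2 is apart in the stabilized pair.

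All 18 tested pan-endothelial genes lay within 1.5-fold, as did 99.3% of all tested genes, with a median of 0.07 and a range from -0.42 to 0.45. A count of 0 calls in a list of this size is therefore near the background, here and in the lists that follow. Pecam1, an adhesion molecule of endothelial junctions, was at 4.12 in the stabilized library (3.04 to 5.20) and 4.08 in the stabilized Ndp knockout (3.05 to 5.10), against 1.93 in WT and 2.02 FPKM in the Ndp knockout. Cdh5, the VE-cadherin gene, was at 2.79 and 2.98 FPKM in the stabilized pair with overlapping intervals. In the comparison without stabilization 1 of these 18 genes was called lower, beside 0.465% of all tested genes. This was the adhesion receptor gene Eltd1, at 0.532 in the Ndp knockout and 1.36 in WT (-0.85). Under stabilization it was at 3.72 and 3.79 FPKM (-0.03), and only these levels took it over the minimum mean.

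Some sprouting and matrix genes were higher in the Ndp knockout than in WT, and none was called in the stabilized pair. Of 9 tested tip cell genes none was called under stabilization (median 0.02), against 2 higher without it, Igfbp3 (0.87) and Adm (0.60). Without stabilization 0.385% of all tested genes were higher. Of 10 genes of the vascular basement membrane none was called (median 0.03), against 3 higher without it. Among these, Col4a1, a collagen chain of basement membranes, was at 4.81 in WT, 7.77 in the Ndp knockout, 16.7 in the stabilized library (14.6 to 18.9) and 18.0 FPKM in the stabilized Ndp knockout (15.7 to 20.3). Its log2 ratio was 0.10 under stabilization and 0.64 without. The 13 arterial, venous and Notch genes (median -0.01) and the 15 BMP and TGF-beta genes (median -0.02) had no call in either comparison.

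Mural cells, the pericytes and smooth muscle cells around vessels, gave 1 higher call among 10 tested genes, beside 0.489% of all tested genes. Their median was 0.12, with 6 ratios above 0 and 4 below. Acta2 (chromosome 19, 34241091 to 34255336), the smooth muscle actin, was at 0.392 in WT (0.221 to 0.562), 0.756 in the Ndp knockout (0.476 to 1.04), 1.53 in the stabilized library (1.05 to 2.01) and 3.38 FPKM in the stabilized Ndp knockout (2.49 to 4.27). The stabilized Ndp knockout was the highest library, with an interval clear of that of the stabilized library and a log2 ratio of 0.94. Myh11, the smooth muscle myosin, at 0.0842 and 0.237 FPKM, and Des, desmin, at 0.556 and 0.757 FPKM, were too low to test. Both were picked after their values were seen, and the listed smooth muscle genes Tagln, Myl9 and Cnn1 are not described here. A joint change of smooth muscle genes was not tested. Of the listed pericyte genes, Rgs5 (-0.20) and Pdgfrb (-0.28) had ratios below 0, and the others are not described here. Pdgfrb was named after its values were seen and had the lowest ratio of the 10 tested genes. A joint change of pericyte genes was not tested. Rgs5, a pericyte regulator of G-protein signaling, was at 25.02 in the stabilized library (21.2 to 28.9) and 21.7 FPKM in the stabilized Ndp knockout (18.2 to 25.2), and Pdgfrb, the PDGF receptor of mural cells, at 2.70 and 2.14 FPKM. Without stabilization Rgs5 had been lower in the Ndp knockout, at 9.63 FPKM against 17.6 FPKM (-0.84).

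Of 17 listed Wnt targets and feedback genes 9 were tested and none was called, beside 0.738% of all tested genes, with a median of 0.02 and a range from -0.20 to 0.35. Axin2, a negative feedback gene of the pathway, was at 5.35 in the stabilized library (4.40 to 6.30) and 5.80 FPKM in the stabilized Ndp knockout (4.80 to 6.80). Apcdd1, a Wnt inhibitor of retinal endothelium, was at 12.1 in WT, 9.27 in the Ndp knockout, 14.5 in the stabilized library and 16.5 FPKM in the stabilized Ndp knockout, with overlapping intervals in both pairs. Tcf7, a transcription factor of the pathway, had a log2 ratio of -0.20, and Lef1, another, was below 1 FPKM in all 4 libraries. Without stabilization 8 of these 9 genes lay below 0 (median -0.10), against 3 of 9 under stabilization, where all genes had 44.0% and 63.4% of ratios above 0. Wnt targets are shared by many retinal cell types, so these levels are not those of endothelial cells alone.

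**Figure D3:**
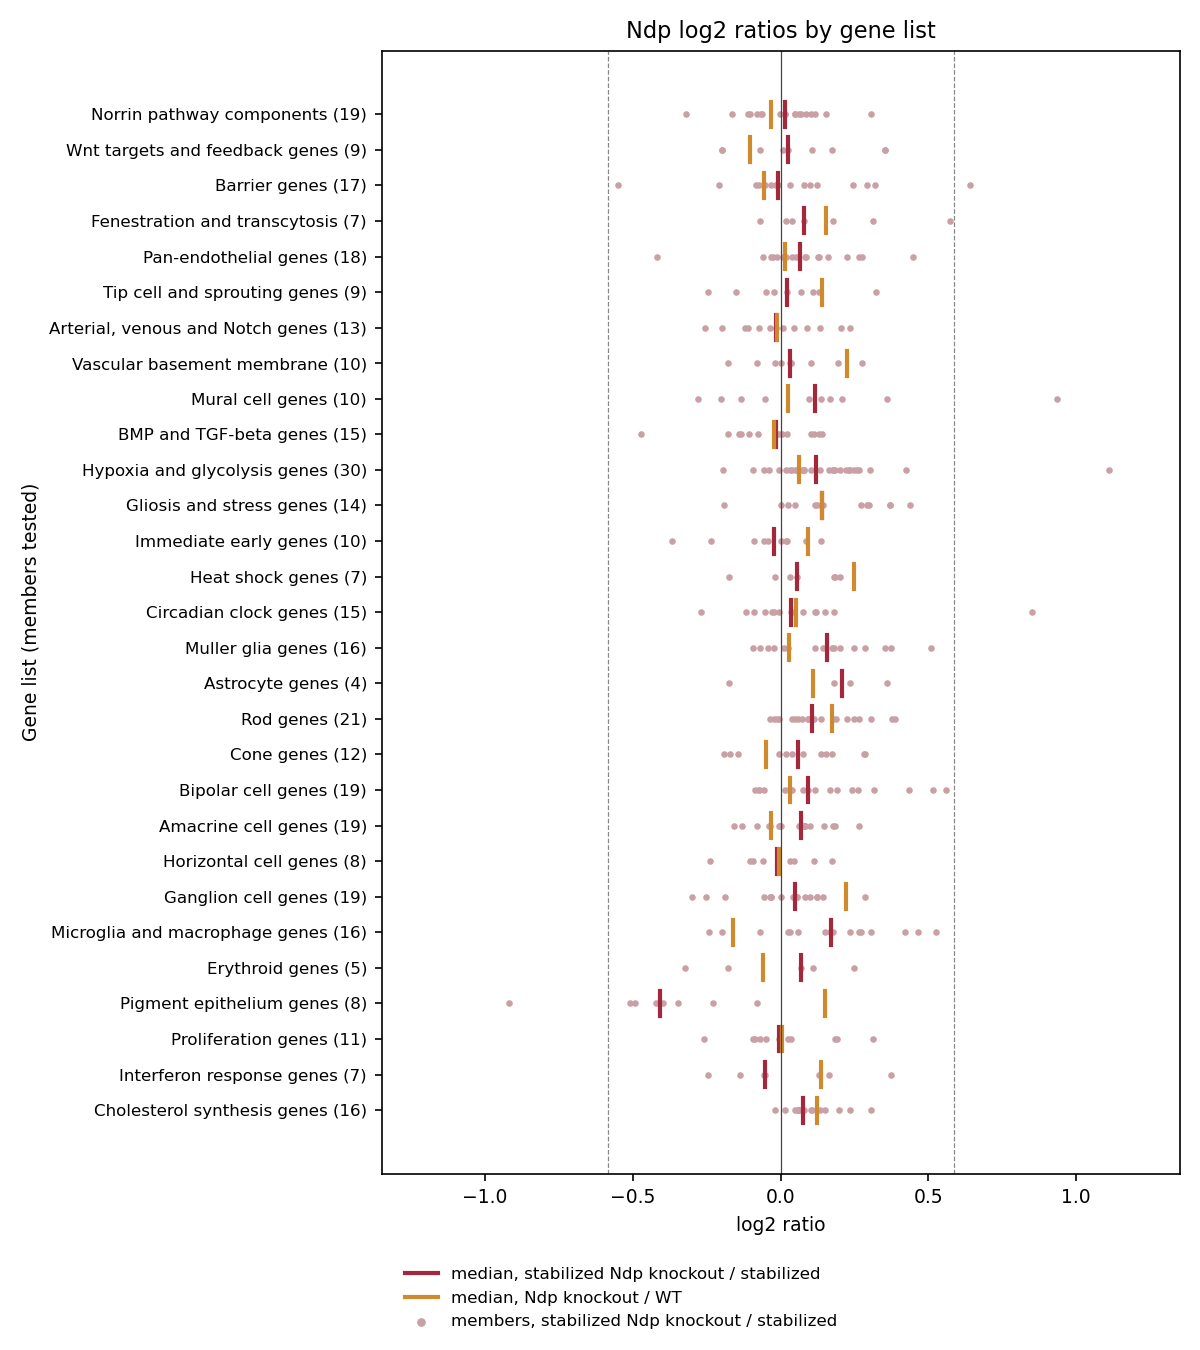
Rows are gene lists with the number of tested members. Points are log2 ratios of members between the stabilized Ndp knockout and the stabilized library, red bars their medians, orange bars the medians for the Ndp knockout against WT, and dashed lines mark 1.5-fold. Pigment epithelium genes have the lowest red bar, at -0.41.

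Hypoxia and gliosis are known responses of a retina that lacks its deeper capillaries, and their genes gave 1 call here. Of 30 tested hypoxia and glycolysis genes 1 was higher, Hmox1, described below, beside 0.489% of all tested genes. The median was 0.12 with 25 members above 0, beside a median of 0.04 and 63.4% above 0 for all genes. Vegfa, the vascular growth factor gene, was at 87.0 in the stabilized library (75.6 to 98.4) and 90.8 FPKM in the stabilized Ndp knockout (78.6 to 103). Of 14 tested gliosis genes 0 were called, and their median was 0.14 beside 0.04 for all genes. Without stabilization 3 of the 14 were called higher, beside 0.385% of all genes, and their median was 0.14 beside -0.02. Gfap, the intermediate filament of reactive glia, was at 4.02 in WT, 6.38 in the Ndp knockout, 7.10 in the stabilized library (5.70 to 8.50) and 8.80 FPKM in the stabilized Ndp knockout (7.01 to 10.6). WT was the lowest library, and the intervals of the stabilized pair overlapped (0.29). A set of 16 genes of cholesterol synthesis had 15 members above 0 and a median of 0.07. Without stabilization the same set had 14 members above 0 and a median of 0.12, beside -0.02 for all genes. Under stabilization the median of the set was near the 0.04 of all genes. It fell to 0.002 after scaling the libraries to the same total. Immediate early genes (-0.02), heat shock genes (0.05), interferon response genes (-0.05) and proliferation genes (-0.00) had no call.

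Among retinal neurons no member of the rod, cone, bipolar, amacrine, horizontal or ganglion cell lists was called, and the medians lay between -0.01 and 0.11. Intervals were apart for 1 rod gene and 1 bipolar gene, beside 0.457% of all tested genes. The highest bipolar ratio, 0.56, was just short of the call. Gnat1, the rod transducin, was at 239 in WT, 401 in the Ndp knockout, 215 in the stabilized library (184 to 246) and 213 FPKM in the stabilized Ndp knockout (182 to 243). The Ndp knockout alone was apart from the others, with a log2 ratio of 0.74 to WT and of -0.01 in the stabilized pair. For all tested genes the median was 0.04 with 63.4% above 0 under stabilization, and -0.02 with 44.0% above 0 without it. Beside this, Müller glia genes had a median of 0.16 with 12 of 16 above 0 and no call. The 4 tested astrocyte genes had a median of 0.21 and no call. Microglia and macrophage genes had a median of 0.17 with 13 of 16 above 0, against -0.16 with 1 of 16 above 0 without stabilization. No member had intervals apart under stabilization, and the difference between the comparisons was not tested. Among 5 erythroid genes the median was 0.07. Hba-a1 was at 99.8 and 119 FPKM in the stabilized pair (0.25), and its near-identical copy Hba-a2 went the other way (-0.32). The likeness of these copies makes their separate values uncertain.

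The pigment epithelium is the tissue behind the retina, and some of it can stay attached at dissection. All 8 tested of 13 listed genes of this tissue had ratios below 0, with a median of -0.41 beside 0.04 for all genes. Of these 8 genes 1 was called lower, beside 0.249% of all tested genes. Rpe65 (chromosome 3, 159599181 to 159625307), the isomerase of the visual cycle, was at 2.90 in WT (2.10 to 3.69), 3.45 in the Ndp knockout (2.55 to 4.34), 5.09 in the stabilized library (3.90 to 6.27) and 2.45 FPKM in the stabilized Ndp knockout (1.76 to 3.15). The stabilized library was the highest of the 4, and its interval was apart from that of the stabilized Ndp knockout, with a log2 ratio of -0.92. Ttr, the carrier of thyroid hormone and retinol, was at 30.1 in WT, 34.3 in the Ndp knockout, 33.5 in the stabilized library (28.1 to 38.8) and 23.4 FPKM in the stabilized Ndp knockout (19.2 to 27.5). Here the stabilized Ndp knockout was the lowest library, and intervals were again apart (-0.51).

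The other 6 members overlapped between the stabilized libraries. Pmel, Tyrp1, Dct and Tyr, genes of pigment granules and melanin synthesis, had log2 ratios of -0.49, -0.42, -0.23 and -0.08, and Rdh5 and Rgr of the visual cycle had -0.40 and -0.35. The summed level of the list was 66.5 in WT, 73.8 in the Ndp knockout, 80.4 in the stabilized library and 59.3 FPKM in the stabilized Ndp knockout. The stabilized library thus held the highest and the stabilized Ndp knockout the lowest sum. The part of carried-over tissue in these values was not tested.

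**Figure D4:**
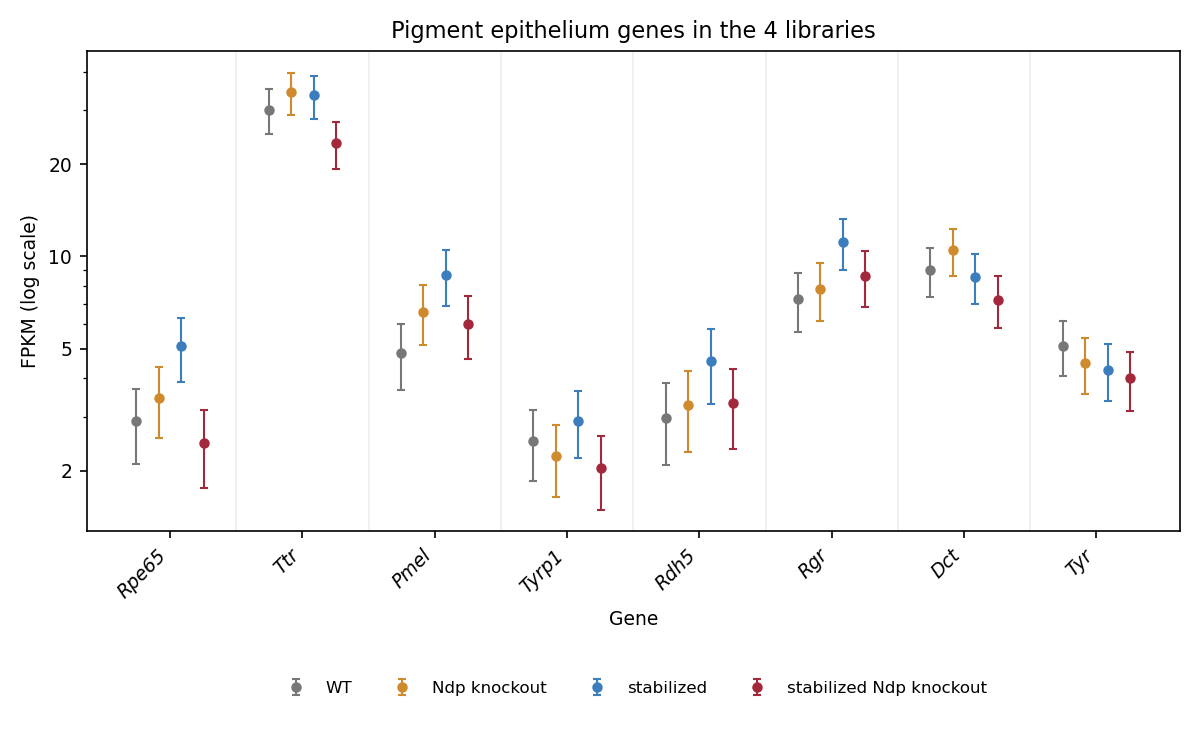
Points are the deposited FPKM (log axis) of the 8 tested pigment epithelium genes in the 4 libraries, and bars are the deposited intervals. For each gene the stabilized Ndp knockout lies below the stabilized library, with intervals apart for Rpe65 and Ttr.

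Loss of Ndp gave calls of the same direction in both backgrounds for 17 genes (0.136% of those tested), 9 higher and 8 lower. These make up 18.5% of the 92 genes called under stabilization and 16.0% of the 106 called without it, and the 2 comparisons share no library. A further 8 genes were called in opposite directions. Across genes the log2 ratios of the 2 comparisons had a Pearson correlation of 0.19 and a Spearman correlation of 0.05, as a description over 12470 genes that share their libraries. For 10 of the 17 genes the intervals were apart in both comparisons, 6 higher and 4 lower. Drd4, Emp1, Gm13152, Hddc3, Hmox1 and Igf2 were higher, and Ipw and Lrrc17 were among the lower ones. Both comparisons also set male against female pools, so for these genes loss of Ndp and sex cannot be told apart.

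Among the higher genes, Hmox1 (chromosome 8, 75093618 to 75100593), the heme-degrading enzyme heme oxygenase-1, was at 2.51 in WT (1.79 to 3.23), 4.67 in the Ndp knockout (3.50 to 5.84), 4.14 in the stabilized library (3.06 to 5.22) and 9.52 FPKM in the stabilized Ndp knockout (7.60 to 11.4). The stabilized Ndp knockout was above all others, and the log2 ratios were 1.11 under stabilization and 0.78 without. Emp1 (chromosome 6, 135362931 to 135383173), an epithelial membrane protein, was at 1.19 in WT (0.822 to 1.55), 2.28 in the Ndp knockout (1.67 to 2.88), 0.677 in the stabilized library (0.444 to 0.911) and 2.16 FPKM in the stabilized Ndp knockout (1.57 to 2.74). Both knockout libraries were near the same level, above both others, with log2 ratios of 1.17 and 0.72. Drd4 (chromosome 7, 141292006 to 141295001), a dopamine receptor of photoreceptors with a daily rhythm, was at 30.0 in WT (24.95 to 35.1), 53.9 in the Ndp knockout (46.0 to 61.8), 9.88 in the stabilized library (7.47 to 12.3) and 18.2 FPKM in the stabilized Ndp knockout (14.6 to 21.8). Both stabilized libraries were below both others, while the ratio for loss of Ndp was alike, at 0.85 and 0.83. Of the other 14 tested circadian clock genes none was called under stabilization. The sources used here do not give the hour of collection.

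The upstream sequences of Emp1 and Drd4 are shown as examples of genes that were higher in both comparisons, again as the 250 bases before the RefSeq start (GRCm38.p6), Emp1 from chr6:135362681-135362930 and Drd4 from chr7:141291768-141292017, both on the plus strand. Capitals mark the core CTTTGA.
Emp1: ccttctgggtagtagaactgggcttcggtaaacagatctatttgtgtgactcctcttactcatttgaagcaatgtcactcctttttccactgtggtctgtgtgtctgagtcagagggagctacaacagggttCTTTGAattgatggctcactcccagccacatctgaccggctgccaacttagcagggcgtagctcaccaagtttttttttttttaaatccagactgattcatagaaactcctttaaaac
Drd4: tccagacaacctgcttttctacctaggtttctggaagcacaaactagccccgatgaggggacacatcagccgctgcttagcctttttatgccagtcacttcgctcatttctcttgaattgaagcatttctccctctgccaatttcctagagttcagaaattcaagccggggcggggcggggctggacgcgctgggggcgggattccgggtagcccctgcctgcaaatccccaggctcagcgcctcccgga
Emp1 had 1 match, 118 bases before this start, and Drd4 had none in this window, beside the 13.8% of promoters that hold the core. The SOX core ACAATG, found in 10.7% of promoters, matched neither sequence, nor those of Cldn5 and Mfsd2a.

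Igf2 (chromosome 7, 142650768 to 142670356), an imprinted growth factor gene, was at 14.5 in WT (12.03 to 17.1), 24.6 in the Ndp knockout (21.0 to 28.2), 21.4 in the stabilized library (17.8 to 25.03) and 33.0 FPKM in the stabilized Ndp knockout (27.7 to 38.4). Each knockout library was above its partner, with log2 ratios of 0.61 under stabilization and 0.74 without. The first of these fell short of 1.5-fold after re-centring (0.58) or scaling to the same total (0.54). Igf2 shares its deposited locus with another gene. H19, the imprinted non-coding RNA beside it (chromosome 7, 142575532 to 142578146), also had intervals apart in both comparisons, with log2 ratios of 0.50 and 0.64. Hddc3, a hydrolase gene, was at 17.2 in WT, 26.6 in the Ndp knockout, 11.8 in the stabilized library (9.09 to 14.5) and 25.6 FPKM in the stabilized Ndp knockout (20.9 to 30.2), with ratios of 1.08 and 0.61. Gm13152, a gene with a provisional symbol, had ratios of 0.92 and 1.18.

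Among the lower genes, Lrrc17 (chromosome 5, 21483847 to 21645605), a secreted leucine-rich repeat protein, was at 2.45 in WT (1.79 to 3.12), 1.23 in the Ndp knockout (0.838 to 1.62), 1.28 in the stabilized library (0.877 to 1.68) and 0.218 FPKM in the stabilized Ndp knockout (0.111 to 0.325). The stabilized Ndp knockout was the lowest and WT the highest library, with log2 ratios of -1.31 and -0.77. The locus of Lrrc17 is shared with another gene in the table.

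Ipw, an imprinted non-coding RNA of the Prader-Willi region (chromosome 7, 59619158 to 59678878), was at 60.3 in WT, 22.4 in the Ndp knockout, 34.9 in the stabilized library (28.2 to 41.6) and 21.7 FPKM in the stabilized Ndp knockout (16.9 to 26.6). Both knockout libraries were near one level, and the log2 ratios were -0.67 under stabilization and -1.41 without.

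**Figure D5:**
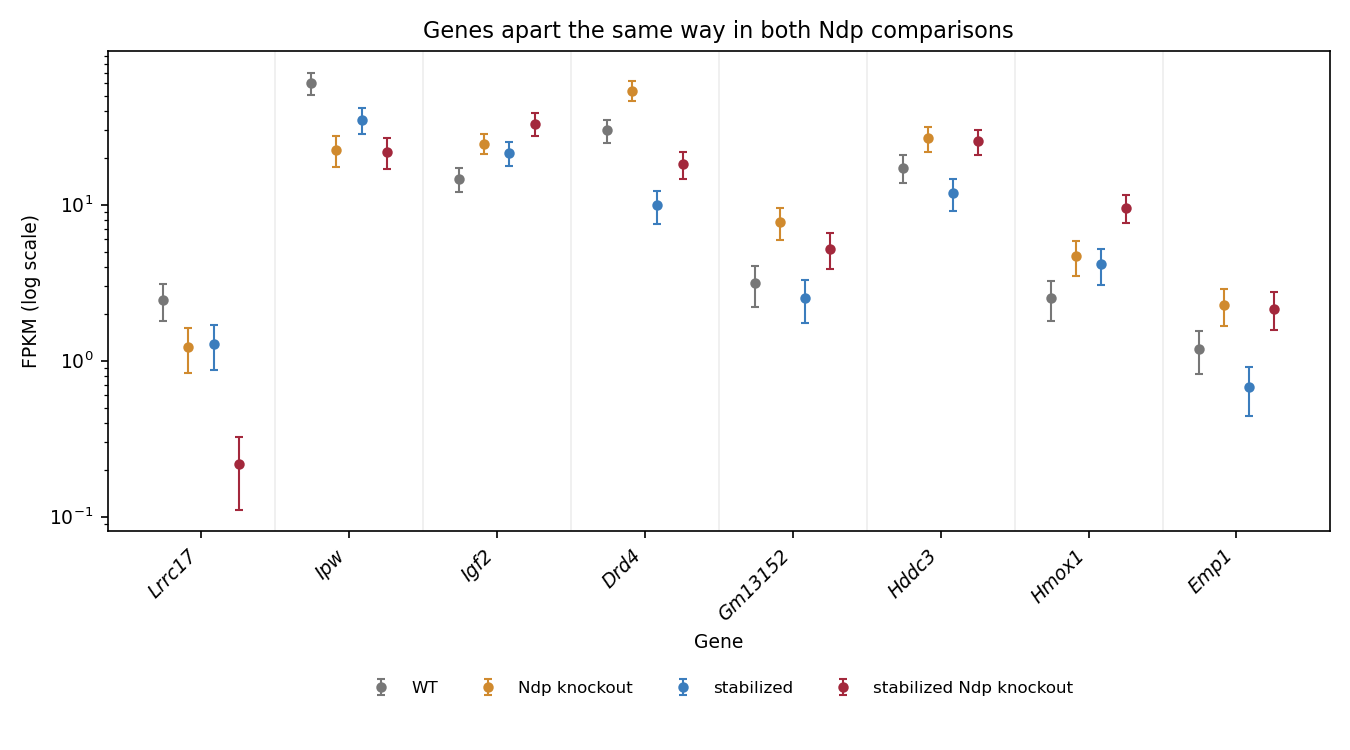
Points are the deposited FPKM (log axis) of 8 genes called the same way with intervals apart in both comparisons, and bars are the deposited intervals, cut at 0.01 FPKM. Genes are ordered by the ratio of the stabilized pair. Lrrc17 is lowest in the stabilized Ndp knockout, and Drd4 is lower in both stabilized libraries than in WT.

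Of the 92 genes called under stabilization, 67 were under 1.5-fold without it, beside 99.15% of all tested genes. Hsd17b2, a steroid dehydrogenase gene, was at 1.23 in WT, 1.79 in the Ndp knockout, 0.241 in the stabilized library (0.0975 to 0.384) and 1.56 FPKM in the stabilized Ndp knockout (1.04 to 2.08). The stabilized library was the 1 that stood apart, below the others, and the log2 ratio was 1.48. Slc25a37, the mitochondrial iron importer mitoferrin-1, showed the same arrangement, at 4.93 in WT, 5.01 in the Ndp knockout, 2.33 in the stabilized library (1.77 to 2.88) and 6.37 FPKM in the stabilized Ndp knockout (5.24 to 7.50), a log2 ratio of 1.28. Entpd4, close to it on chromosome 14, had intervals apart as well, at 26.3 and 35.6 FPKM (0.43). Akr1e1, an aldo-keto reductase gene, was at 12.3 in the stabilized library (10.03 to 14.5) and 26.1 in the stabilized Ndp knockout (22.2 to 29.9), against 23.5 in WT and 32.3 FPKM in the Ndp knockout.

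In other genes it was the stabilized Ndp knockout that stood apart. Anxa1, annexin A1, a calcium-dependent membrane-binding protein, was at 2.55 in WT, 2.04 in the Ndp knockout, 2.10 in the stabilized library (1.46 to 2.74) and 5.20 FPKM in the stabilized Ndp knockout (3.90 to 6.50), a log2 ratio of 1.13. Klk1b22, a member of the tightly clustered kallikrein family, was below 1 in 3 libraries and at 4.70 FPKM in the stabilized Ndp knockout (2.94). It met the minimum mean only through that library. Mgp, the matrix Gla protein of fibroblasts and vessel walls, was at 9.51 and 16.9 FPKM in the stabilized pair with intervals apart (0.80). It was 1 of 2 tested members of the fibroblast and ocular surface list, and the other, the collagen gene Col1a2, had a log2 ratio of 0.03. The summed level of that list, to which Mgp gave the most, was 10.5 in WT, 13.1 in the Ndp knockout, 13.5 in the stabilized library and 21.1 FPKM in the stabilized Ndp knockout. The lens gene Crybb3 was called too (0.76), with overlapping intervals, as 1 of 2 tested lens genes. The summed lens list was at 28.7 in WT, 25.6 in the Ndp knockout, 23.2 in the stabilized library and 28.7 FPKM in the stabilized Ndp knockout. The part of adjoining tissue in these genes was not tested.

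Apobec3, a cytidine deaminase of antiviral defense whose deposited locus is shared with another gene, was higher in both libraries that carry Pdgfb-CreER and Ctnnb1flex3, which always occur together here. It was at 0.623 in WT, 0.515 in the Ndp knockout, 4.01 in the stabilized library (2.96 to 5.06) and 9.68 FPKM in the stabilized Ndp knockout (7.53 to 11.8), a log2 ratio of 1.17. The intervals of these 2 libraries were apart from each other, while without stabilization the log2 ratio was -0.15 with overlapping intervals. Its locus (chromosome 15, 79889532 to 79908429) lies beside that of Pdgfb (79995876 to 80014808), which was at 1.14 in WT, 1.11 in the Ndp knockout, 2.57 in the stabilized library and 2.92 FPKM in the stabilized Ndp knockout. The part of this position in the Apobec3 values was not tested.

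Among lower genes that were under 1.5-fold without stabilization, Kcnj14, an inward rectifier potassium channel gene, was at 5.33 in WT, 5.83 in the Ndp knockout, 3.37 in the stabilized library (2.56 to 4.17) and 1.85 FPKM in the stabilized Ndp knockout (1.34 to 2.37), and here the stabilized Ndp knockout was the lowest (-0.72). The zinc finger gene Zfp658 (-0.71) and the phospholipase gene Pla2g4b (-0.60) also had intervals apart.

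The most extreme ratios belonged in part to genes whose values cannot be separated from copies or overlapping genes. The ribosomal protein genes Rps27 (3.19) and Rpl26 (2.05), Amd1 (3.83), Akr1b3 (1.15), Hist2h2aa2 (-1.16) and Duxbl (-0.85) share their deposited locus with another gene. The small RNA genes AF357426 and Bc1 were listed at 0 in the stabilized Ndp knockout, with intervals in the stabilized library that reached down to 0. No fold is given for them.

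The log2 ratio for loss of Ndp differed at least 2-fold between the backgrounds in 46 genes (0.369% of those tested). Of these, 31 differed upward and 15 downward under stabilization. Leaving out genes that share a locus, chosen after seeing the data, gave 22 genes. Outside genes that share a locus or have provisional symbols, the largest upward differences were those of Klk1b22 (3.71) and Cldn5 (2.45). The largest downward ones were those of Clcf1 (-1.64) and Rec8 (-1.40). Klk1b22 met the minimum mean only through the stabilized Ndp knockout, and Rec8 only through the Ndp knockout. The filter thus kept each of them through the library in which it was high. Rec8, a meiotic cohesin subunit, was at 0.807 in WT, 2.70 in the Ndp knockout, 0.710 in the stabilized library and 0.620 FPKM in the stabilized Ndp knockout, so the Ndp knockout stood apart. These differences have 1 library in each cell of the design and were not tested.

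By position, calls were spread over all 19 autosomes. Chromosome 8 held 10 called genes of 698 (1.43%) and 11 genes with intervals apart (1.58%), against 0.738% and 0.457% of all tested genes. Chromosome 7 held 12 called of 981 (1.22%) and chromosome 6 held 8 of 625 (1.28%). These shares are a description of 1 pair of libraries.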

How the data were processed

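RNA of whole retinas was measured in 4 pooled libraries, 1 per genotype. FPKM, as deposited by the authors with a lower and an upper bound and a status per gene, are scaled to transcript length and library size. Per the submitters' processing notes, the tools were TopHat and Cuffdiff and the build mm10. The sources used here do not give versions, annotation, strandedness or how fragments were divided among overlapping genes. A total of 4285 genes share a deposited locus. Columns were assigned by the number that a sample's description carries.

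Log2 ratios of FPKM plus 0.5 were computed for 12470 genes. This left out 145 genes with another status in at least 1 library, and then 245 short RNA symbols and 435 genes on X or Y from the 13150 left at a mean of 1 FPKM. Libraries of 1 per group allow no test, so members of 32 gene lists were counted at 1.5-fold and list medians were set beside that of all genes. The calculation was tested on simulated data. Members and lists were chosen with earlier results of these data known. Named by rule were the 10 highest and 10 lowest ratios and the 6 largest differences each way without provisional symbols, up to 4 called members per list and direction, genes apart the same way in both comparisons, and a set of pathway, vascular, retinal and sex check genes. Named after their values were seen were Akr1e1, Entpd4, H19, Kcnj14, Zfp658, Pla2g4b, Apcdd1, Eltd1, Igfbp3, Adm, Myh11, Des, Pdgfrb, Ttr and the other pigment epithelium genes, and the provisional genes of the closing section. A few genes that the rule names are not reported here. Alternatives were a pseudocount of 0.1 or 1, no minimum or one of 0.5 or 5 FPKM, re-centring, rescaling to the same total, all statuses, short RNA symbols kept, intervals apart, 2-fold, and, chosen after seeing the data, genes that share a locus left out. Promoters came from RefSeq (GRCm38.p6). Python 3.11.15, numpy 2.4.6, pandas 2.3.3, scipy 1.17.1 and matplotlib 3.10.9 were used.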

Additional observations from a re-analysis of the deposited data

Results flagged for a closer look

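For the genes given here the log2 ratios for loss of Ndp were at least 1.5-fold in opposite directions in the 2 backgrounds. The difference between the ratios, with stabilization minus without, was not tested, since each cell of the design holds 1 library.

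Clcf1, a cytokine gene of the IL-6 family, was at 0.869 in WT, 1.90 in the Ndp knockout, 1.91 in the stabilized library and 0.860 FPKM in the stabilized Ndp knockout. Intervals overlapped within both pairs, and the difference was -1.64. Klk1b22, of the kallikrein cluster, was at 0.674 in WT, 0.189 in the Ndp knockout, 0.176 in the stabilized library and 4.70 FPKM in the stabilized Ndp knockout. Its difference was 3.71, and only the last of these levels took it over the minimum mean.

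The ribosomal protein gene Rps27 had a difference of 5.86, with an interval in WT that began at 0, and it shares its deposited locus. Among genes with provisional symbols the differences were 3.35 for 1810007I06Rik, 1.37 for 2810002D19Rik, -1.57 for Gm5512 and -7.06 for LOC100302567, the last listed at 0 in the stabilized Ndp knockout. All of these except 2810002D19Rik share a deposited locus with another gene.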

How the results depend on the processing

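Counts depended on the settings. In the main setting they were 61 genes higher, 31 lower, 17 the same way in both comparisons and 46 with ratios at least 2-fold different between backgrounds. In that order they became 93, 57, 26 and 80 with a pseudocount of 0.1, 18, 8, 9 and 20 with a minimum of 5 FPKM, 109, 70, 28 and 84 with no minimum, and 121, 85, 61 and 208 with short RNA symbols kept. Leaving out genes that share a locus, chosen after seeing the data, gave 40, 18, 9 and 22. The first 3 counts were 22, 13 and 10 with intervals apart and 15, 9 and 4 at 2-fold, and a pseudocount of 1 gave 40 higher genes. The remaining 23 of 50 alternative counts stayed within 1.5 times. Of list medians at least 0.1 from 0, those of 8 lists changed sign under none of the alternatives run, and no called ratio of a named gene changed sign, while the ratios near 0 of Ctnnb1, Hbb-b2, Lrp5 and Vegfa did so after rescaling. Plvap reached 1.5-fold (0.70) and Slco1c1 too (-0.62) with a pseudocount of 0.1, Slco1c1 also after re-centring (-0.59) and rescaling (-0.61), and Pglyrp1 fell short with a pseudocount of 1 (0.54) and after rescaling (0.58). No paired analysis was possible because each genotype had 1 pooled library and no replicate number. Read depth is unknown, so no limit could be set for genes listed near 0.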
